A study of Mus musculus with 24 samples.

Results

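The presynaptic vesicle release genes are 42 genes for the proteins that load, dock, prime, fuse and recycle the fusion machinery of synaptic vesicles. They were taken by symbol from the authors' deposited comparison tables, and all 42 were found among the 38355 genes that each library lists. Every one of them passed the filter on low counts and entered every test, among the 16744 genes tested over all libraries. Polyadenylated RNA was sequenced from the dissected CA1 field of the hippocampus. The mice were C57BL/6J, between 3 and 5 months old. All mice carried floxed Kat2a on both alleles (Kat2a fl/fl), which encodes a lysine acetyltransferase, and the conditional knockout (cKO) mice carried CamKII_alpha-cre+ in addition. The CamKII alpha promoter drives Cre in excitatory forebrain neurons, so Kat2a is not targeted in the other cells of the tissue. Mice of each genotype were naive or had been exposed to novelty for 15 min, which gave 6 naive and 5 novelty libraries of control and 6 naive and 7 novelty libraries of cKO mice. The labels do not say whether each library comes from a separate mouse, so the p-values below measure the spread between these libraries only.

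A synaptic vesicle fuses with the presynaptic membrane when the vesicle SNARE protein VAMP2 zips up with SNAP25 and syntaxin 1 on the target membrane. Synaptotagmin is the calcium sensor that triggers the final step, complexin clamps and promotes it, and Munc13 and RIM proteins of the active zone prime vesicles beside calcium channels. In the hippocampus these proteins act in axon terminals, while most of their mRNA lies in cell bodies, so a CA1 dissection reports mainly on neurons whose bodies lie in CA1.

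The shallowest library held 10.7 M (mega) assigned reads and the deepest 35.75 M, around a median of 19.01 M, and the 42 genes together took 1.995 to 2.26% of them. Levels below are CPM, read counts brought to a common library size after TMM scaling, with scaling factors between 0.9717 and 0.9972 for control libraries and between 0.997 and 1.0274 for cKO. Kat2a checked the labels: it stood at 59.29 to 70.31 CPM in control naive and 32.47 to 39.34 CPM in cKO naive libraries, and its genotype difference over both exposures was -0.79 on the log2 scale (SE 0.04, edgeR adjusted p = 9.08e-14). Across genes, counts fell with GC content in 11 of 12 libraries numbered 1 to 3. They rose with it in 10 of 12 numbered 4 and above. The labels give no run for either set, so genotype differences of the genes that passed are also given within those 2 sets. All 9 CA1 pyramidal marker genes were detected in every group, with a summed level of 1195 to 1643 CPM per library, and markers of dentate granule cells, CA2, CA3 and subiculum, interneurons and glia were detected as well.

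In cKO mice 12 of the 42 genes differed from control over both exposures, 9 lower and 3 higher. The 9 lower genes were the SNARE genes Vamp2, Snap25 and Nsf, the synaptotagmins Syt1 and Syt11, and the vesicle membrane genes Syp, Syngr3, Sv2b and Rab3c, of which Syt11 fell by 8.34%, the least, and Syngr3 fell by 13.67%, the most. The 3 higher genes were the active zone scaffold genes Rims1 and Rimbp2, by 18.39% and 17.75%, and the calcium sensor gene Doc2a, by 36.05%. After 15 min of novelty, no member passed in either genotype, and no member's response to novelty differed between genotypes at the threshold. A gene is said to have passed, risen or fallen where the edgeR adjusted p over all genes tested was below 0.05. In a whole tissue, fewer cells of a type and less RNA per cell cannot be told apart.

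The 12 of 42 are 28.6% of the members, against 12% of all genes tested in the genotype comparison averaged over exposures. The 9 that fell are 21.4% of the members, against 6.32% of all genes, and the 3 that rose are 7.14%, against 5.72%. Members are abundant genes, and abundant genes pass more often. Among the 9619 genes with at least the mean count of the least abundant member, 15.4% passed, 9.61% lower and 5.77% higher. The median log2 difference of the 42 members was -0.067, beside 0.005 over all genes tested, and 32 of the 42 were below 0. By role, 3 of 7 genes of SNAREs and their disassembly fell, 4 of 12 of the vesicle membrane and coat fell, and 2 of 9 calcium sensors and complexins fell while 1 rose. Of 12 active zone genes 2 rose and none fell, and neither of the 2 transporters that load transmitter passed.

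**Figure D1:**
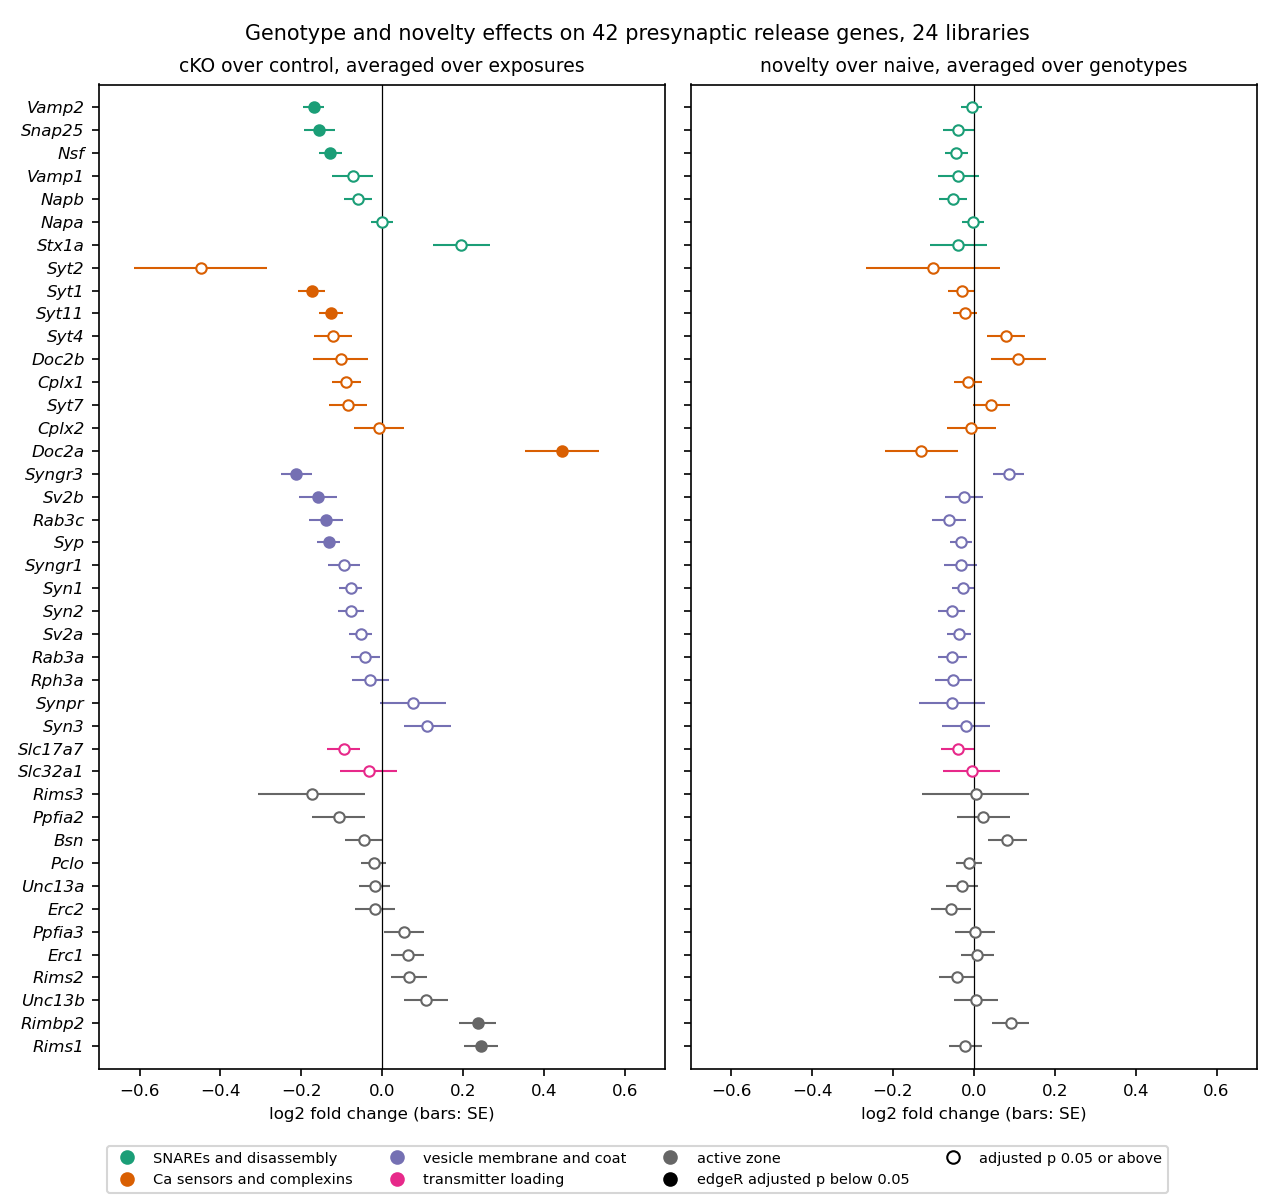
Log2 fold changes of the 42 genes (points, bars: SE), grouped by role, for cKO over control averaged over exposures (left) and novelty over naive averaged over genotypes (right); filled points have an edgeR adjusted p below 0.05. On the left 9 filled points lie below 0 and 3 above it, and on the right no point is filled.

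In control naive CA1 these genes spanned a wide range of levels. Per kb of exon, Snap25 was highest, at 422.9 CPM per kb in control naive libraries, followed by Cplx2 at 338.8, Vamp2 at 268.8, Cplx1 at 263.6 and Syt1 at 229.5. The lowest was Syn3, synapsin III, at 1.023 CPM per kb, with Unc13b at 3.101 and Doc2a at 4.223. All 12 active zone genes lay between 3.101 CPM per kb for Unc13b and 31.32 CPM per kb for Unc13a, and of the other roles only Vamp1, Syt2, Doc2a, Synpr, Syn3 and Slc32a1 stood below that upper end. Between libraries of a group the members varied little: the coefficient of variation of CPM, averaged over the 4 groups, ran from 3.62% for Vamp2 to 26.16% for Syt2, with a median of 7.41%.

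**Figure D2:**
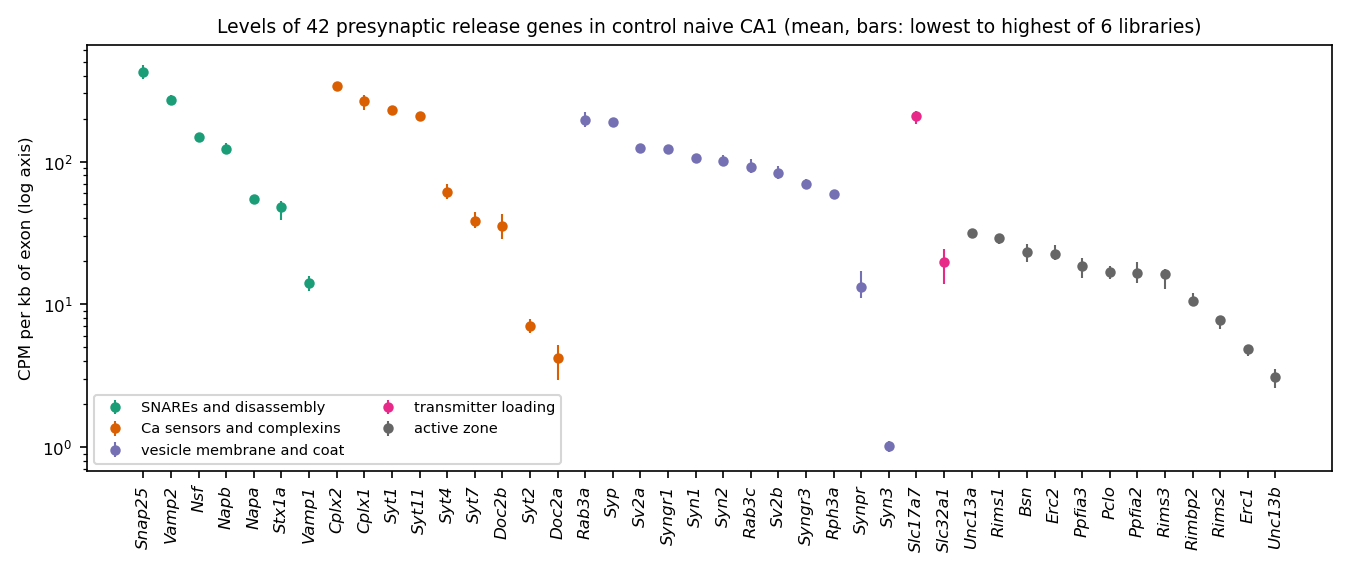
Level of each of the 42 genes in control naive CA1 as CPM per kb of exon on a log axis, ordered within roles; points are means and bars run from the lowest to the highest of 6 libraries. Snap25 stands highest at 422.9 and Syn3 lowest at 1.023.

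Among the SNARE genes, Vamp2 (synaptobrevin 2, ENSMUSG00000020894, chromosome 11, 69088490 to 69092384 in GRCm38) gave the most even values. It stood at 991.3, 1010 and 1115 CPM (lowest, median, highest) in control naive libraries and at 1007, 1034, 1023, 964.4 and 1009 CPM in the 5 control novelty libraries. In cKO naive libraries it stood at 873.7, 898.7 and 929.1 CPM and in cKO novelty libraries at 834.6, 887.9 and 960.9 CPM. Every one of the 13 cKO libraries was below every one of the 11 control libraries, a separation seen in 0.317% of all genes tested. The gap was narrow, between 960.9 CPM in cKO novelty library 3 and 964.4 CPM in control novelty library 4. These are values after TMM scaling, and the separation was not tested without it. Over both exposures Vamp2 fell by 11.1% (log2 difference -0.17, SE 0.03, edgeR adjusted p = 9.03e-05). It fell by 12.07% in naive mice and fell by 9.80% in novelty-exposed mice, with edgeR adjusted p = 0.0251 and 0.0437. The drop of Vamp1 (synaptobrevin 1), the isoform more prominent in spinal cord and brainstem, was not past the threshold, at 4.94% with edgeR adjusted p = 0.38.

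Snap25, the target-membrane SNARE, stood at 2590, 2855 and 3230 CPM in control naive and at 2644, 2920, 2956, 2531 and 2858 CPM in control novelty libraries. It stood at 2418, 2551 and 2772 CPM in cKO naive and at 2305, 2533 and 2727 CPM in cKO novelty libraries, so the genotypes overlapped at both exposures, with the cKO naive median below every control naive library. Over both exposures Snap25 fell by 10.23% (log2 difference -0.16, SE 0.04, edgeR adjusted p = 0.00868). Nsf, the ATPase that takes spent SNARE complexes apart, fell by 8.53% (-0.13, SE 0.03, edgeR adjusted p = 0.00325), from 1168, 1239 and 1280 CPM in control naive to 1069, 1111 and 1180 CPM in cKO naive libraries. In novelty-exposed mice Nsf was 1276, 1180, 1194, 1104 and 1179 CPM in control and 1024, 1103 and 1155 CPM in cKO, again with overlap. Nsf and Vamp2 lie on chromosome 11, as does the floxed Kat2a gene. So does Doc2b, which did not pass (-0.10, SE 0.07, edgeR adjusted p = 0.358). Both genotypes carried the floxed alleles, and any part of the shared chromosome was not tested.

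The adaptors that bring NSF to the SNARE complex did not pass: Napa (alpha-SNAP) had a log2 difference of 0.00 (SE 0.03) and Napb (beta-SNAP) one of -0.06 (SE 0.04). Stx1a, the syntaxin 1A partner of SNAP25, leaned the other way from Vamp2 and Snap25, with a log2 difference of 0.20 (SE 0.07, edgeR adjusted p = 0.0725). Its levels were 103.4 to 141.1 CPM in control naive and 127.8 to 179.3 CPM in cKO naive libraries.

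Of the calcium sensors, Syt1, the synaptotagmin of fast synchronous release, stood at 1823, 1910 and 2036 CPM in control naive and at 1808, 1917, 1934, 1718 and 1906 CPM in control novelty libraries. It stood at 1564, 1685 and 1777 CPM in cKO naive and at 1496, 1676 and 1793 CPM in cKO novelty libraries. The naive groups did not overlap, and the novelty-exposed groups did. Syt1 fell by 11.4% over both exposures (-0.17, SE 0.03, edgeR adjusted p = 0.000896). Syt11, a synaptotagmin that does not act as a calcium sensor of fusion, fell by 8.34% (-0.13, SE 0.03, edgeR adjusted p = 0.00601), from a median of 1067 to 1010 CPM in naive and from 1092 to 952.5 CPM in novelty-exposed mice.

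Doc2a, a high-affinity calcium sensor linked to spontaneous and asynchronous release, was the member with the largest percent change among those that passed. It stood at 8.319, 11.96 and 14.49 CPM in control naive and at 8.559, 10.36, 12.85, 9.507 and 12 CPM in control novelty libraries. It stood at 13.48, 15.97 and 18.27 CPM in cKO naive and at 9.773, 15 and 17.88 CPM in cKO novelty libraries. The groups overlapped at both exposures. Libraries 1 (12.64 CPM) and 2 (9.773 CPM) of cKO novelty lay below the highest control novelty library, at 12.85 CPM. The lowest cKO naive library, at 13.48 CPM, lay below the highest control naive library, at 14.49 CPM. Doc2a rose by 36.05% (0.44, SE 0.09, edgeR adjusted p = 0.00204) at a mean of 268.2 reads per library, the second lowest of the 42 after 260.8 for Syn3. An exon of Doc2a overlaps one of Ino80e, and counts without strand cannot tell their shared reads apart. Ino80e itself had a log2 difference of 0.00 (SE 0.05, edgeR adjusted p = 0.977).

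Syt2, the fast calcium sensor of many inhibitory and brainstem terminals, had the most negative estimate of all members, -0.45 with an SE of 0.16, and did not pass (edgeR adjusted p = 0.0798). Its libraries scattered widely, from 47.81 to 60.35 CPM in control naive and from 24.22 to 72.52 CPM in cKO naive. Syt4 was at -0.12 (SE 0.05) and Syt7, the slow sensor of asynchronous release, at -0.08 (SE 0.05), and Doc2b was at -0.10 (SE 0.07). The complexin genes Cplx1 (-0.09, SE 0.04) and Cplx2 (-0.01, SE 0.06) did not pass.

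Of the vesicle membrane genes, Syp (synaptophysin, a common marker of vesicles) stood at 902.3, 994.1 and 1050 CPM in control naive and at 947.1, 944.8, 981.4, 944.2 and 1057 CPM in control novelty libraries. It stood at 879, 905.2 and 967 CPM in cKO naive and at 846.5, 869.9 and 922.3 CPM in cKO novelty libraries. The novelty-exposed groups did not overlap, and the naive groups did. Syp fell by 8.78% over both exposures (-0.13, SE 0.03, edgeR adjusted p = 0.00219).

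Syngr3 (synaptogyrin 3, a relative of synaptophysin) had the largest percent fall among the members that passed. It stood at 136.8, 142.6 and 156.5 CPM in control naive against 111.5, 128.3 and 133.5 CPM in cKO naive libraries, with no overlap. After novelty it stood at 148.7, 150.3, 160.4, 159.2 and 146.1 CPM in control and at 119.8, 127.2 and 150.1 CPM in cKO libraries, where the highest cKO library lay within the controls. Syngr3 fell by 13.67% (-0.21, SE 0.04, edgeR adjusted p = 0.000539), and its relative Syngr1 was at -0.09 (SE 0.04, edgeR adjusted p = 0.125).

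Sv2b, a vesicle glycoprotein, fell by 10.5% (-0.16, SE 0.05, edgeR adjusted p = 0.0266), from 631.4, 703.6 and 778.3 CPM in control naive to 558.6, 604 and 695 CPM in cKO naive libraries, and the groups overlapped. Without control novelty library 3 or library 5 the edgeR adjusted p for Sv2b was 0.0572 or 0.0603. Rab3c, a vesicle GTPase, fell by 9.17% (-0.14, SE 0.04, edgeR adjusted p = 0.0321), from 1005, 1112 and 1249 CPM in control naive to 913.4, 987.7 and 1027 CPM in cKO naive libraries. Rab3c passed in 17 of 24 fits that each left out 1 library; without control naive 2, control novelty 1, 3 or 5, cKO naive 1 or 5 or cKO novelty 6 the edgeR adjusted p was 0.05 to 0.0678.

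The other 8 vesicle membrane and coat genes did not pass over both exposures. The synapsins, which tether vesicles in the reserve pool, were at -0.08 (Syn1, SE 0.03), -0.08 (Syn2, SE 0.03) and 0.11 (Syn3, SE 0.06). Sv2a, the ubiquitous SV2 isoform, was at -0.05 (SE 0.03), Rab3a at -0.04 (SE 0.04), its effector Rph3a (rabphilin) at -0.03 (SE 0.05) and Synpr (synaptoporin) at 0.08 (SE 0.08). Slc17a7, the vesicular glutamate transporter VGLUT1, was at -0.10 (SE 0.04, edgeR adjusted p = 0.126), and Slc32a1, the vesicular GABA transporter VGAT, at -0.03 (SE 0.07, edgeR adjusted p = 0.811).

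The active zone genes that passed both rose. Rims1, the RIM scaffold that binds RAB3, Munc13 and calcium channels, stood at 196.1, 215.9 and 224.5 CPM in control naive and at 191.2, 205.5, 229.2, 186.7 and 199.4 CPM in control novelty libraries. It stood at 227.3, 242.1 and 265 CPM in cKO naive and at 208, 256.9 and 268 CPM in cKO novelty libraries. The naive groups did not overlap, and after novelty 1 control library, at 229.2 CPM, was above the lowest cKO library. Rims1 rose by 18.39% (0.24, SE 0.04, edgeR adjusted p = 0.000315), and in novelty-exposed mice alone by 22.95% (edgeR adjusted p = 0.0157).

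Rimbp2, which ties RIM to voltage-gated calcium channels, stood at 77.29, 80.94 and 95.38 CPM in control naive and at 97.41, 83.77, 91.51, 100.1 and 84.71 CPM in control novelty libraries. It stood at 88.86, 103.1 and 112.6 CPM in cKO naive and at 98.19, 104.3 and 118.7 CPM in cKO novelty libraries, with overlap at both exposures. Rimbp2 rose by 17.75% (0.24, SE 0.05, edgeR adjusted p = 0.00126). Its exons overlap the predicted gene Gm42875, for which no value was obtained.

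The other 10 active zone genes did not pass over both exposures. Unc13a (Munc13-1, the main priming factor of these neurons) was at -0.02 (SE 0.04) and Unc13b (Munc13-2) at 0.11 (SE 0.05, edgeR adjusted p = 0.208). The other RIM genes, Rims2 and Rims3, were at 0.07 (SE 0.04) and -0.17 (SE 0.13), and the liprin-alpha genes Ppfia2 and Ppfia3 at -0.11 (SE 0.07) and 0.05 (SE 0.05). The giant scaffolds of the active zone, Bsn (bassoon) and Pclo (piccolo), were at -0.05 (SE 0.05) and -0.02 (SE 0.03), and the ELKS genes Erc1 and Erc2 at 0.06 (SE 0.04) and -0.02 (SE 0.05).

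**Figure D3:**
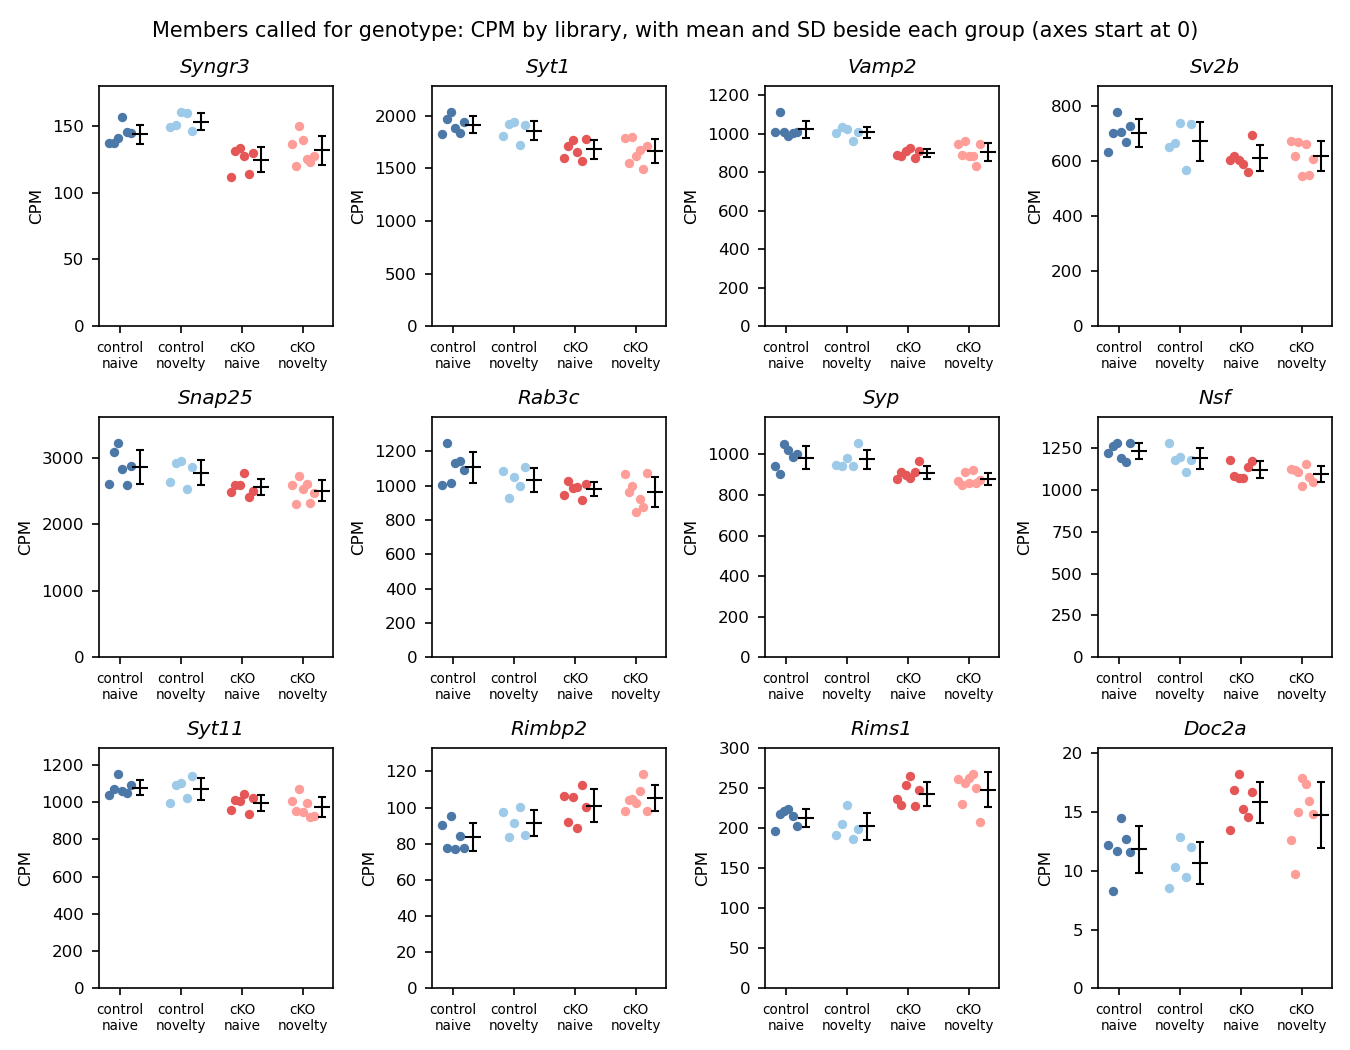
CPM of the 12 genes that passed for genotype, 1 point per library, with mean and SD beside each group of 5 to 7 libraries and axes from 0. Vamp2 shows all 13 cKO libraries, at 834.6 to 960.9 CPM, below all 11 control libraries, at 964.4 to 1115 CPM, while the groups overlap at 1 exposure or both for the other genes.

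For the members that moved together and have a start site in the RefSeq promoter table of GRCm38.p6, the sequence before the start is shown for 4 genes that fell and 2 that rose, so that their promoters can be read side by side. Of the 42 genes 33 matched that table, 8 of them among the 12 that passed. Each sequence runs 5′ to 3′ on the gene's own strand and ends just before the start site, or before the deposited or GENCODE gene boundary where that lies further upstream; GC boxes (GGGCGG or its complement) are in capitals.
Syp, chrX:7638330-7638470, plus strand: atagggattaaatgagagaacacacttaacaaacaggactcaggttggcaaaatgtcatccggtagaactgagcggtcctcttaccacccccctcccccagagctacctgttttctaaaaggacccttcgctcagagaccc
Syt1, chr10:109010983-109011225, minus strand: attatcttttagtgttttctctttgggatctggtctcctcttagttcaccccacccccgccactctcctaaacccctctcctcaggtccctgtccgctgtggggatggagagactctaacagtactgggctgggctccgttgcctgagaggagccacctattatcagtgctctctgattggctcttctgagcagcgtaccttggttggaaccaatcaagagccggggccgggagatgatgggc
Sv2b, chr7:75309263-75309512, minus strand: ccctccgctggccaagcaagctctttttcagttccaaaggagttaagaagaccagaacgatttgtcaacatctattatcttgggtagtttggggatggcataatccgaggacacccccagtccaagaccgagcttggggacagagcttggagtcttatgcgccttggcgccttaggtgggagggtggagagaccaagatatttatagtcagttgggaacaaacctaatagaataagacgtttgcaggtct
Nsf, chr11:103954057-103954306, minus strand: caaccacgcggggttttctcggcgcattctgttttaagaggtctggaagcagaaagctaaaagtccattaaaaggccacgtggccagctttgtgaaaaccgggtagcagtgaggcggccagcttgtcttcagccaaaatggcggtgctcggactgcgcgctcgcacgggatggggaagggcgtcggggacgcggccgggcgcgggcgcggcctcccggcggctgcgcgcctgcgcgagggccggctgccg
Rims1, chr1:22806159-22806408, minus strand: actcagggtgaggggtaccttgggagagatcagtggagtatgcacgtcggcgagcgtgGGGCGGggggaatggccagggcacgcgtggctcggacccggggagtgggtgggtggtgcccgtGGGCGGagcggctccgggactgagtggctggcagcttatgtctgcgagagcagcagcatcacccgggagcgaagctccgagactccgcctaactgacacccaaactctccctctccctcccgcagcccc
Rimbp2, chr5:128953487-128953736, minus strand: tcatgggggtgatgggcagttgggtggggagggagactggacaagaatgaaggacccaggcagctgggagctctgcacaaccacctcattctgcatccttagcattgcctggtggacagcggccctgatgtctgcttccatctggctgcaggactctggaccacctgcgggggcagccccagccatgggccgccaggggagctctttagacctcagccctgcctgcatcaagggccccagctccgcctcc
The printed stretches of Syp (141 bases) and Syt1 (243 bases) stop short of the full 250 bases, so the genes are compared over the full length, which also holds the bases not printed. There Rims1 and Syp hold 2 GC boxes each, Syt1 holds 1, and Sv2b, Nsf and Rimbp2 hold none. The printed bases of Syp and Syt1 hold no GC box. A GC box stood in 4 of the 6 matched genes that fell and in 1 of the 2 that rose. Syt11 is among those 4, and its RefSeq start lies 2565 bases from the deposited gene start. For Cplx2, also among the 33 matched genes, that distance is 68793 bases. Over the same length the 4 printed genes that fell are 48.8 to 66% GC, with 30 CpG in Nsf and 7 to 11 in the others. Rims1 is 68% GC with 19 CpG and Rimbp2 63.6% with 4.

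Over the 250 bases before the start, searched on both strands, a GC box stood in 24 of the 33 members (72.7%), against 32.7% of all 32851 windows and 42.6% of the 21262 windows of protein-coding genes. The median GC content was 62% for the member windows, 52.4% for all windows and 55.6% for windows of protein-coding genes. It was 53.8% for the 6 matched genes that fell and 65.8% for the 2 that rose. The start of the REST site, TTCAGCACC, stood in 2 of 33 (6.06%, Ppfia3 and Syn1; 0.301% of all windows), and an NRF1-type motif in 4 (12.1%, Bsn, Nsf, Pclo and Syp; 3.74%). The cAMP response element TGACGTCA stood in 1 (3.03%, Syn1; 1.55%), the TATA box TATAAA in 1 (3.03%, Sv2b; 12.4%), the E-box CACGTG in 3 (9.09%, Napa, Nsf and Unc13b; 6.02%) and CCAAT in 11 (33.3%; 33.8%). In windows of protein-coding genes the shares were 0.329% for the REST start, 5.18% for the NRF1-type motif and 1.92% for the cAMP response element. They were 11.6% for the TATA box, 6.63% for the E-box and 35.4% for CCAAT. None of these motifs contains another, and a match describes the letters only.

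Taken at each exposure alone, fewer members passed. In naive mice 1 of 42 passed, Vamp2, or 2.38% of members against 0.801% of all genes, and 0.495% of all genes fell. Of the 9619 genes with at least the mean count of the least abundant member, 1.01% passed. At an unadjusted p below 0.05 there were 17 members, 12 lower and 5 higher, or 40.5% of members against 13.6% of all genes. Next to Vamp2 the smallest p in naive mice were those of Syt1 (-0.19, SE 0.04, edgeR adjusted p = 0.0527), Rims1 (0.19, SE 0.05, edgeR adjusted p = 0.0721) and Rimbp2 (0.27, SE 0.07, edgeR adjusted p = 0.0792). In novelty-exposed mice 5 passed, or 11.9% against 4.53%. Vamp2, Syp and Syngr3 fell (7.14% of members against 2.4% of all genes) and Rims1 and Rimbp2 rose (4.76% against 2.13%). Of the same 9619 abundant genes 5.54% passed after novelty, 3.49% lower and 2.05% higher. An unadjusted edgeR p below 0.05 was seen after novelty for 14 members, or 33.3% against 20.7% of all genes. There Syp was at -0.15 (SE 0.04, edgeR adjusted p = 0.0381), Syngr3 at -0.21 (SE 0.05, edgeR adjusted p = 0.028) and Rimbp2 at 0.21 (SE 0.06, edgeR adjusted p = 0.0461). Rimbp2 missed the threshold there with RLE scaling (edgeR adjusted p = 0.0523), and Vamp2 with upper-quartile scaling (edgeR adjusted p = 0.0519). With 1 library left out, Rims1 passed after novelty in 12 of 12 fits, Syngr3 in 7, Vamp2 and Syp in 4 each and Rimbp2 in 3, and Vamp2 passed in naive mice in 5 of 12. DESeq2 in place of edgeR called 8 members in naive mice (19%, against 3.05% of the genes it tested), 9 in novelty-exposed mice (21.4% against 7.47%) and 14 over both exposures (33.3% against 14%). The authors' deposited tables hold 9 and 10 members with an adjusted p below 0.05, against 3.18% and 8.17% of their genes. The libraries of the 2 genotypes did not overlap for 4 members in naive mice (Vamp2, Syngr3, Syt1 and Rims1, 1.91% of all genes) and for 2 after novelty (Vamp2 and Syp, 3.14% of all genes).

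The comparisons in naive and in novelty-exposed mice share no library, so their estimates can be set side by side. The sign was the same for 37 of 42 members (88.1%), against 68.6% of 16095 genes: 27 were below 0 in both and 10 above 0 in both. Across the 42 genes, which are not independent replicates, the estimates had a Pearson r of 0.886 and a Spearman rho of 0.83, against 0.439 and 0.467 across all genes. Members are abundant genes, and this agreement was not compared with that of genes of like abundance. The 5 members whose sign differed, Napa, Cplx2, Rph3a, Unc13a and Erc2, had estimates of -0.06 to 0.01 at either exposure. Doc2a was at 0.41 and 0.49, Rims1 at 0.19 and 0.30, Syt1 at -0.19 and -0.16 and Syngr3 at -0.21 and -0.21 in naive and novelty-exposed mice.

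**Figure D4:**
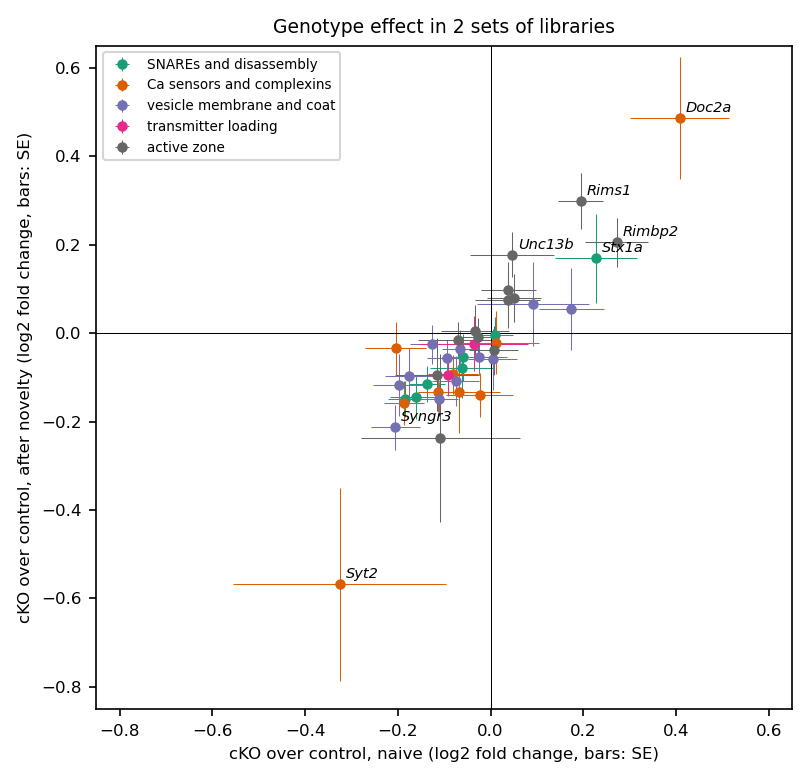
Log2 fold change of cKO over control in naive (x axis) and in novelty-exposed mice (y axis) for the 42 genes, colored by role, with SE bars. Of the 42 points 27 lie in the lower left and 10 in the upper right quadrant, with Doc2a farthest to the upper right.

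All 12 genes that passed had the same sign among libraries numbered 1 to 3 and among those numbered 4 and above. These genes were picked over all 24 libraries, so this agreement is not independent support. Some members that did not pass changed sign between the sets, such as Cplx2 (-0.13 and 0.08) and Synpr (-0.06 and 0.23). The mean log2 differences in these 2 sets were -0.18 and -0.15 for Vamp2, -0.19 and -0.11 for Snap25, -0.15 and -0.10 for Nsf, -0.17 and -0.17 for Syt1 and -0.10 and -0.14 for Syt11. They were -0.11 and -0.15 for Syp, -0.16 and -0.26 for Syngr3, -0.14 and -0.16 for Sv2b and -0.07 and -0.20 for Rab3c. The genes that rose gave 0.22 and 0.28 (Rims1), 0.19 and 0.27 (Rimbp2) and 0.42 and 0.45 (Doc2a).

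Novelty exposure for 15 min left no member past the threshold. None of 42 passed in control mice, where 1.22% of all genes did, none in cKO mice, where 2.41% did, and none over both genotypes, where 6.55% did. At an unadjusted p below 0.05 there was 1 member (2.38%) in each of the 3 edgeR comparisons, against 11% of all genes in control mice, 13.9% in cKO mice and 17.6% over both genotypes. DESeq2 called no member either, and 2.58%, 4.05% and 7.63% of the genes it tested. Over both genotypes Syngr3 had the smallest p, at 0.09 (SE 0.04, edgeR adjusted p = 0.216), then Rimbp2 at 0.09 (SE 0.05, edgeR adjusted p = 0.306), Bsn at 0.08 (SE 0.05, edgeR adjusted p = 0.413) and Syn2 at -0.05 (SE 0.03, edgeR adjusted p = 0.427). The median log2 difference of the members was -0.026, beside -0.013 over all genes.

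In control mice Syn2 (synapsin II) had the smallest p, with a log2 difference of -0.11 (SE 0.05, edgeR adjusted p = 0.397), followed by Syngr3 (0.09, SE 0.05, edgeR adjusted p = 0.546), Rimbp2 (0.12, SE 0.07, edgeR adjusted p = 0.568) and Rab3c (-0.11, SE 0.06, edgeR adjusted p = 0.604). In cKO mice it was Syt4, a synaptotagmin whose gene is known as an activity-induced one. It stood at 179.5, 207.4 and 229.6 CPM in cKO naive and at 207.1, 228.6 and 262.7 CPM in cKO novelty libraries, a log2 difference of 0.17 (SE 0.06, edgeR adjusted p = 0.171) with overlapping groups, followed by Bsn (0.11, SE 0.06, edgeR adjusted p = 0.475), Syp (-0.05, SE 0.03, edgeR adjusted p = 0.546) and Syngr3 (0.08, SE 0.06, edgeR adjusted p = 0.561). In control mice Syt4 was at -0.01 (SE 0.07).

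The interaction asks whether the novelty response differs between genotypes. It passed for none of the 42 members and for 0% of all genes, with 0 members and 4.11% of all genes at an unadjusted p below 0.05 by edgeR, and none of the members and 0% of the genes tested called by DESeq2. Syt4 had the smallest p, with a difference of responses of 0.17 (SE 0.10, edgeR adjusted p = 1), then Syn2 (0.10, SE 0.07), Syt7 (-0.12, SE 0.09) and Rims1 (0.10, SE 0.08), each with edgeR adjusted p = 1.

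Ratios between members within a library do not depend on the scaling of libraries, and 6 were tested in 4 comparisons. In control naive libraries there were 20.66 reads of Slc17a7 per read of Slc32a1, 7.16 of Vamp2 per read of Vamp1, 2.90 of Cplx2 per read of Cplx1 and 35.78 of Syt1 per read of Syt2, not corrected for length. None of the 24 tests passed after Benjamini-Hochberg adjustment by exact two-sided permutation of the library labels. For genotype in naive mice the smallest exact permutation p possible was 0.00216, too large for 1 ratio to pass alone over 24 tests. The lack of a pass therefore does not show that the ratios were equal. The smallest p was for Unc13a over Unc13b after novelty, which ran from 5.404 to 6.274 in control libraries and from 4.448 to 5.561 in the cKO (exact p = 0.01263, adjusted p = 0.303), with overlapping groups. Sv2a over Sv2b in naive mice, 0.823 in control and 0.901 in cKO, gave exact p = 0.05844 and adjusted p = 0.7013.

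Other genes of vesicle release were read from lists set beside the members, and no list was tested as a set. For genotype over both exposures 12% of all genes tested passed, 6.32% lower and 5.72% higher, and the counts below stand beside those shares. Of 16 tested partners of the SNAREs 2 fell over both exposures, among them Stxbp5l, a tomosyn (-0.18, SE 0.04, edgeR adjusted p = 0.00383). Of 17 other synaptotagmins and related genes 1 rose, the related gene Rph3al (0.28, edgeR adjusted p = 0.0469). Its level was 3.156 to 6.17 CPM in control naive and 4.553 to 6.289 CPM in cKO naive libraries.

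Of 24 other vesicle proteins 2 rose and 1 fell. Rab3d, a RAB3 isoform better known from secretory granules, rose by 0.40 (SE 0.05, edgeR adjusted p = 1.41e-05), from 20.31, 22.09 and 23.4 CPM in control naive to 23.29, 27.26 and 30.48 CPM in cKO naive libraries. Sypl2 (mitsugumin 29) rose by 0.63 (SE 0.10, edgeR adjusted p = 0.00013) at a level of 2.923 to 8.019 CPM, and Scamp5 fell by 0.11 on the log2 scale (SE 0.02, edgeR adjusted p = 0.00147). Of 24 other active zone genes 3 fell, Git1 (-0.31), Lin7a (-0.18) and Unc13c (-0.62), and 2 rose, Arhgef7 (0.09) and Cacna1b (0.10), the pore of N-type calcium channels.

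Of 26 genes of vesicle endocytosis 4 fell: the clathrin chains Clta (-0.09) and Cltc (-0.09), the adaptor subunit Ap2b1 (-0.16) and Eps15 (-0.12). Of 16 genes of the vesicle proton pump 1 fell, Atp6ap2 (-0.11, edgeR adjusted p = 0.0275). The medians of these 6 lists were -0.045, -0.006, -0.006, -0.007, -0.030 and -0.051 in the order given. With novelty over both genotypes Snap29 rose by 0.18 (edgeR adjusted p = 0.00391) and Slc18a2, the vesicular monoamine transporter, by 0.28 (edgeR adjusted p = 0.0349), and no other gene of the 6 lists passed.

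Marker genes of cell types also differed by genotype over both exposures, where 12% of all genes tested passed. The part of these markers in the members' differences was not tested. Of 9 CA1 pyramidal markers 3 fell, Gpr161 (-0.35), Man1a (-0.32) and Mpped1 (-0.17), with a list median of -0.17, and their summed level was 1376 to 1643 CPM in control naive and 1229 to 1425 CPM in cKO naive libraries. After novelty that sum was 1431 to 1574 CPM in control and 1195 to 1372 CPM in cKO libraries. Of 12 interneuron markers 5 fell, among them Pvalb (-0.30), Nxph1 (-0.17) and Cck (-0.20), with a median of -0.12 and sums of 1220 to 1420 against 1109 to 1249 CPM in naive and 1244 to 1424 against 1144 to 1321 CPM in novelty-exposed mice.

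Of 8 oligodendrocyte markers 6 fell, among them Mobp (-0.34) and Mog (-0.31), with a median of -0.26 and sums of 4937 to 5214 against 4116 to 5246 CPM in naive and 4579 to 5576 against 3166 to 6087 CPM in novelty-exposed mice. Of 10 dentate granule markers 2 fell, C1ql2 (-0.86) and Stxbp6 (-0.40), with a list median of -0.12. In this list 7 estimates were below 0 and 3 above. The list median differed in sign by exposure, at 0.058 in naive and -0.30 in novelty-exposed mice. The sums of these dentate markers were 243.5 to 418 against 236.4 to 457.8 CPM in naive mice. They were 266.8 to 513 against 198.5 to 366.1 CPM in novelty-exposed mice. Of 12 markers of CA2, CA3 and subiculum 2 fell, Lypd1 (-0.41) and Coch (-0.40), and none rose past the threshold. The list leaned the other way, with 7 estimates above 0, 5 below and a median of 0.065. Their sums were 428.5 to 564.2 against 443.9 to 531.5 CPM in naive and 434.9 to 485 against 436.8 to 572 CPM in novelty-exposed mice. None of 8 astrocyte, 8 microglia and 5 tested choroid plexus markers passed, and of 8 endothelial markers Ly6c1 fell (-0.27). No gene of these lists was at 0 reads in a group.

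Some members followed cell type markers from library to library. After removal of group means, the log2 CPM of Syt2 correlated with that of Pvalb, the marker of fast-spiking interneurons, over 24 libraries (Pearson r = 0.756, permutation p = 0.00017, adjusted p = 0.00034; Spearman rho = 0.64, permutation p = 0.00191). Without the 2 libraries farthest from the median of Pvalb r was 0.596, and it was 0.695 among libraries numbered 1 to 3 and 0.879 among the others. Vamp1 correlated with Pvalb likewise (r = 0.694, permutation p = 4e-04, adjusted p = 0.000533; rho = 0.723, permutation p = 0.00031; 0.663 without the 2 farthest; 0.676 and 0.703 within the sets).

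Synpr correlated with C1ql2, a dentate granule marker (r = 0.763, permutation p = 6e-05, adjusted p = 0.00024; rho = 0.757, permutation p = 9e-05; 0.721 without the 2 farthest; 0.848 and 0.767 within the sets). Slc32a1 and Gad1, both genes of GABA neurons, gave r = -0.408 (permutation p = 0.0427, adjusted p = 0.0427; rho = -0.386, permutation p = 0.0595; -0.361 without the 2 farthest), which did not hold within the sets, at -0.126 and -0.036. These 4 pairs were chosen with group results seen, and points share library preparation and scaling.

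**Figure D5:**
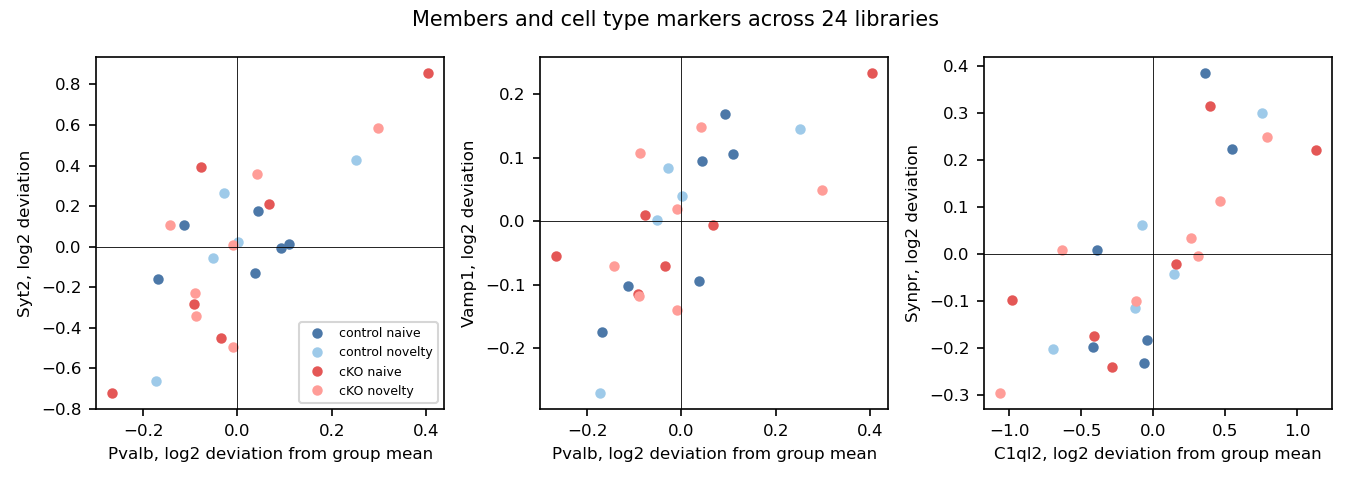
Log2 deviation from the group mean of Syt2 and Vamp1 against Pvalb and of Synpr against C1ql2, 1 point per library, 24 libraries in 4 groups. Points run from lower left to upper right in each panel, with r of 0.756, 0.694 and 0.763.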

How the data were processed

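For each library the authors deposited raw counts for 38355 genes. The submitters' processing notes name HTSeq, DESeq2, STAR 2.3.0 and GRCm38.p2 but no roles. The annotation release and strand setting are not given in the sources used. The labels' protocol names cluster kits for paired-end and for single-end reads, and which library had which is not given in the sources used here. The library preparation kit does not mark strand, so reads of overlapping or antisense genes cannot be told apart. The authors also deposited 4 comparison tables with, per the file headers, a base mean (a signal, the mean normalised count, at least 10), a log2 fold change and a p-value. They gave gene symbols and a comparison of calls. Summary entries of the count tables (5 per library) were left out.

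Differences were tested by edgeR 4.0.16 (R 4.3.3), quasi-likelihood F test on raw counts (TMM, filterByExpr with a minimum count of 10, robust fit) over the whole table, with Benjamini-Hochberg adjustment over all genes tested and a threshold of 0.05. The 4 pairwise comparisons used their own groups, and averages and the interaction used all 24 libraries. The SE of a log2 difference is its size divided by the square root of F. Exon lengths came from GENCODE and promoters from RefSeq. Correlations with markers used log2 CPM with 0.1 added, 100000 permutations within groups and adjustment over 4 pairs. Ratios between members had 0.5 added to each count. Fits were tested on simulated data.

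Full statistics were given for members past the threshold in any comparison and for the 4 members with the smallest p in each; pathway genes that passed over both exposures or genotypes were named, at most 4 a list, and at most 3 markers a list. Cacna1b, the fifth of its list, falls outside that rule and was named after its values were seen. Values of some listed genes are not reported here. The members and lists were chosen with earlier results of these data known. DESeq2 1.42.0, other scalings, no filter, a replicate block, a term for library numbers and leaving out each library were tried as alternatives.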

Additional observations from a re-analysis of the deposited data

Results flagged for a closer look

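In 10 of 168 groups (42 genes in 4 groups each) 1 library lay apart from the others by Dixon's test, which flags about 1 in 20 groups by chance. The values are CPM. Vamp2 in control naive library 2 was 1115, against 991.3 to 1012 in the other libraries of the group, and Vamp2 passed for genotype over both exposures in all 24 edgeR fits that left out 1 library. Vamp1 in cKO naive library 4 was 161, against 126.4 to 137.9. Among active zone genes, Rims2 in control naive library 1 was 69.75 (others 80.61 to 83.83), Rims3 in control naive library 2 was 101.9 (131.1 to 140.7) and Erc1 in control naive library 4 was 71.03 (79.13 to 82.85). Unc13b in cKO novelty library 1 was 85.07 (72.21 to 76.66). Ppfia2 was 229.8 in control novelty library 1 (165.5 to 177.2) and 202.4 in cKO novelty library 2 (159.3 to 175.4). In that same cKO novelty library 2, Rab3a was 359.8 (400.2 to 424.6) and Slc32a1 was 43.98 (52.57 to 56.73).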

How the results depend on the processing

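Over both exposures the 12 members that passed for genotype also passed under RLE scaling, upper-quartile scaling, no filter, DESeq2 (14 members in all) and a term for library numbers (12), and 10 to 14 members passed when 1 library was left out. All but Sv2b and Rab3c of the 12 passed in each of those 24 fits. In naive mice the count of 1 became 8 with DESeq2 and 0 without a filter, and ran from 0 to 2 on leaving out a library: 0 without control naive 5 or 6 or cKO naive 1, 2, 3, 5 or 6, and 2 without cKO naive 4. In novelty-exposed mice the count of 5 became 9 with DESeq2 and 3 without a filter (Syp and Vamp2 lost); RLE scaling and the term for library numbers lost Rimbp2 (edgeR adjusted p = 0.0523 and 0.0628), and upper-quartile scaling lost Vamp2 (0.0519). With a library left out it ran from 1 to 8: 1 without control novelty 2 or 3 or cKO novelty 6, 2 without control novelty 5 or cKO novelty 4, 5 or 7, 3 without cKO novelty 2 and 8 without control novelty 4. The causes were not tested. Counts for novelty, the interaction and the ratios stayed at 0 under every setting run. For the ratios, a replicate block or only 1 of the 2 sets of library numbers left too few rearrangements for any ratio to pass. A count of 0 was fixed in advance there. The replicate numbers do not pair the libraries (correlations of -0.128 to 0.279). With a replicate block 13 members passed for genotype over both exposures, 1 in naive mice (Rimbp2, edgeR adjusted p = 0.0415, with Vamp2 at 0.0826) and 2 in novelty-exposed mice (Rims1 and Syngr3), and none for novelty, the interaction or the ratios. Depth ran from 10.7 to 35.75 M reads, and its part in the pairwise counts was not tested.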
